A study of Mus musculus with 4 samples.

Results

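The heat shock chaperones described here are 10 genes taken by symbol from the 32285 genes of the count matrices: Hspa1a, Hspa1b, Hsph1, Dnajb1, Hspa8, Hsp90aa1, Hsp90ab1, Hspd1, Hspe1 and Hsf1. They were followed in single nuclei of frozen livers from male wild-type C57BL6/J mice, an inbred laboratory strain. The 2 aged libraries came from mice of 30 months and the 2 young libraries from mice of 2 months. No treatment, transgene or other allele is named for any of them. The labels call the libraries replicates without saying whether each came from a separate animal or from pooled tissue, so the p-values describe how far these particular samples vary, a variation that could be technical in part or in whole.

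Heat shock proteins bind unfolded protein chains and help them fold, refold or be degraded. In unstressed cells the transcription factor heat shock factor 1, encoded by Hsf1, is held inactive by chaperones such as HSP90 and HSP70. When unfolded protein draws those chaperones away, the factor forms trimers and binds heat shock elements, repeats of the unit GAA and its complement TTC, in front of chaperone genes. HSP70 proteins work in a cycle with a J-domain partner such as the product of Dnajb1 and with a nucleotide exchange factor such as HSP110, the product of Hsph1. The liver makes and secretes large amounts of protein, and its hepatocytes rely on these proteins at rest, while Hspa1a and Hspa1b are known as the stress-inducible HSP70 genes.

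Promoter sequences are shown for 3 members because each holds a match to units of the heat shock element. Inducible members are known to be regulated through that element. RefSeq promoters of build GRCm38.p6, the assembly also called mm10, were available for 6 of the 10 members. Capitals mark every match to GAANNTTC or TTCNNGAA, which hold 2 units, and to GAANNTTCNNGAA or TTCNNGAANNTTC, which hold 3 units. These forms cover both strands, and a match of 3 units contains matches of 2 units. The first is Hspa1b, the 250 bases before its start at chr17:34959239-34959488 on the minus strand. The second is Hsph1, 250 bases before and 30 after one of its starts at chr5:149636286-149636565 on the minus strand. The third is Hspe1, the 250 bases before its start at chr1:55087898-55088147 on the plus strand.

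Hspa1b: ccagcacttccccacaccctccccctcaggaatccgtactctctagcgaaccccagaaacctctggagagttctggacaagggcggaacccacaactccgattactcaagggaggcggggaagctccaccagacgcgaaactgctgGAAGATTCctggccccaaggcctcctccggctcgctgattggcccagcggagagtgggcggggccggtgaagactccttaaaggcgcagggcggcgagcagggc

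Hsph1: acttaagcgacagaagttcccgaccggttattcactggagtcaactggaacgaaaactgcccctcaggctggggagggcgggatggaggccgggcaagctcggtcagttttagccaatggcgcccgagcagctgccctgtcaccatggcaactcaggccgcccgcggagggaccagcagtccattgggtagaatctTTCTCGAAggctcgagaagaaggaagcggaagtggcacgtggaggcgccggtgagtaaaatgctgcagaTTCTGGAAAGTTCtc

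Hspe1: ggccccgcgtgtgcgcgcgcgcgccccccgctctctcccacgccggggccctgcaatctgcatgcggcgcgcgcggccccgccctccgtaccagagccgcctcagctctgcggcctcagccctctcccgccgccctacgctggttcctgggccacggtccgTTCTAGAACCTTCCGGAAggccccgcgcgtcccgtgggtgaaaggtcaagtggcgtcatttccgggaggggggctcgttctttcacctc

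The Hspa1b promoter held 1 match of 2 units, GAAGATTC, 104 bases before the start, and no match of 3 units. The 300-base window of Hspa1a held the same match at the same place and differed from that of Hspa1b at 4 of 300 bases. The Hsph1 window held TTCTCGAA 54 bases before the start and TTCTGGAAAGTTC beginning at base 16 after it. The Hspe1 promoter held the run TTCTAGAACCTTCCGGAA, and a window of Hspd1 held the same bases read on the opposite strand, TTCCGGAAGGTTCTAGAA, because the 2 genes face away from each other at one locus. The other window of Hspd1, at the annotated start of the gene, held no match, and neither window of Dnajb1 did. Over all 32851 promoter windows of 300 bases, 15.1% held a match of 2 units and 0.603% a match of 3 units. A match describes these letters and is not evidence that the factor binds there.

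In the gene annotation of the same build, Hspa1a and Hspa1b lie 9951 bases apart on chromosome 17 and are single-exon genes of 2967 and 2803 bases. Hsph1 spans 22090 bases on chromosome 5, Dnajb1 4461 bases on chromosome 8, Hspa8 9104 bases on chromosome 9, Hsp90aa1 12124 bases on chromosome 12, Hsp90ab1 5497 bases on chromosome 17 and Hsf1 24492 bases on chromosome 15. Hspd1 spans 10409 bases and Hspe1 3176 bases on chromosome 1, and the 2 genes overlap by 112 bases at their starts on opposite strands. Whether counting used strand is not given in the sources used here, so reads from that overlap could have gone to either gene. Counts of 3 members are uncertain for another reason, which is shared sequence at the end that a 3' library reads. Of the 50-base words in the last 500 bases of the transcript, 81.8% for Hspa8, 53.2% for Hspe1 and 7.76% for Hsp90ab1 also occur in transcripts of other genes, many of them pseudogenes. None did for the other 7 members, Hspa1a and Hspa1b included.

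After filtering, 33254 nuclei remained, of which 23741 were called hepatocyte-like. That class holds the clusters in which the markers of no other class stood out. Hepatocyte markers did not set it apart, since all 12 passed their level in every cluster, those of other classes included. The aged libraries held 5417 and 8168 hepatocyte-like nuclei and the young libraries 1385 and 8771, with a median of 2212 and 2980 UMIs in the aged and 3589 and 919 UMIs in the young. A UMI marks 1 captured RNA molecule. Different clusters held most hepatocyte-like nuclei of each library, namely clusters 14, 18 and 19 in aged replicate 1, clusters 9, 10, 17 and 20 in aged replicate 2, cluster 0 in young replicate 1 and clusters 6, 7 and 15 in young replicate 2. Mitochondrial transcripts were among the leading genes of clusters 14, 15 and 17, and cluster 14 had a median of 872 UMIs. The members and the gene lists used here were left out of the genes that made the clusters. Between 8 and 67 barcodes were shared by any pair of libraries.

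In hepatocyte-like nuclei, the inducible chaperone genes Hspa1b and Hsph1 had the largest differences of the 9 members tested, and both were lower in the aged libraries. Of these 9 members, 7 had both aged libraries below both young libraries and none had them above. Over all genes tested, 25.8% had them below and 25.8% above. No member passed the threshold for a single gene. Levels are given in CPM, counts scaled to a common library total, here a total adjusted by the TMM method, which makes no correction for gene length, so levels are compared between libraries and not between genes.

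Hspa1b, the inducible HSP70, lay at 0.663 and 0.776 CPM in aged replicates 1 and 2, against 15.1 and 4.58 CPM in young replicates 1 and 2. These values rest on 11 and 25 UMIs in the aged and 100 and 49 UMIs in the young libraries. The 2 aged libraries were close to each other, the 2 young ones were far apart, and the groups did not overlap. The log2 fold change was -3.74 (SE 0.71, 95% interval -5.41 to -2.07) with an adjusted p = 0.138 by edgeR's quasi-likelihood test. Its neighbour Hspa1a was counted 1 and 0 times in the aged and 1 and 5 times in the young libraries and was too rare to test.

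Hsph1, the exchange factor and holdase of the HSP70 cycle, lay at 29.3 and 24.4 CPM in the aged libraries and 84.9 and 74.4 CPM in the young libraries. The means were 26.8 ± 3.47 and 79.7 ± 7.48 CPM (SD, n = 2 each), so the gap between the groups was several times the spread within them. The log2 fold change was -1.57 (SE 0.31, 95% interval -2.29 to -0.85, edgeR adjusted p = 0.138). Dnajb1, the J-domain partner that hands clients to HSP70, behaved differently, with 10.1 and 3.26 CPM in the aged and 7.54 and 9.25 CPM in the young libraries. The groups overlapped, and aged replicate 1 was the highest of all 4 libraries (log2 fold change -0.34, 95% interval -1.71 to 1.02).

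Among the constitutive cytosolic chaperones, Hspa8, the HSP70 of unstressed cells, lay at 166 and 72.9 CPM in the aged and 184 and 216 CPM in the young libraries. Aged replicate 1 was close to young replicate 1, and aged replicate 2 stood well below the other libraries. The log2 fold change of Hspa8 was -0.75 (SE 0.43, 95% interval -1.75 to 0.26). Hsp90ab1, the constitutive HSP90, showed the same arrangement, with 142 and 77.3 CPM in the aged and 152 and 152 CPM in the young libraries. Hsp90aa1, the more stress-responsive HSP90, lay at 41.5 and 23.6 CPM in the aged libraries, against 91.4 and 48.1 CPM in the young libraries (log2 fold change -1.10, SE 0.43, edgeR adjusted p = 0.242). Its groups did not overlap, but the spread within each was wide, with the highest aged value close to the lowest young value.

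The 2 components of the mitochondrial chaperonin differed from each other. Hspd1 (HSP60, the folding barrel) lay at 115 and 92.2 CPM in the aged and 189 and 162 CPM in the young libraries, without overlap (log2 fold change -0.76, SE 0.31, edgeR adjusted p = 0.250). Hspe1 (HSP10, the lid of the barrel) lay at 59.4 and 24.6 CPM in the aged and 41.3 and 39.1 CPM in the young libraries. Here the aged libraries stood on either side of the young ones (log2 fold change 0.06, 95% interval -0.96 to 1.08). As a ratio within each library, which no scaling between libraries can change, there were 1.93 and 3.74 UMIs of Hspd1 per UMI of Hspe1 in the aged and 4.56 and 4.14 in the young hepatocyte-like nuclei. Aged replicate 1 was thus apart from the other 3 libraries, and the same library had the lowest ratio in stellate/fibroblast-like, endothelial-like and macrophage-like nuclei, at 1.29, 1.88 and 1.89.

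Hsf1, the transcription factor, lay at 17.7 and 21.5 CPM in the aged and 29.3 and 37.7 CPM in the young libraries. Its groups did not overlap, and the log2 fold change was -0.77 (SE 0.32, 95% interval -1.53 to -0.02, edgeR adjusted p = 0.256). RNA of Hsf1 does not measure the activity of the factor, which is known to be set mainly after translation.

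**Figure D1:**
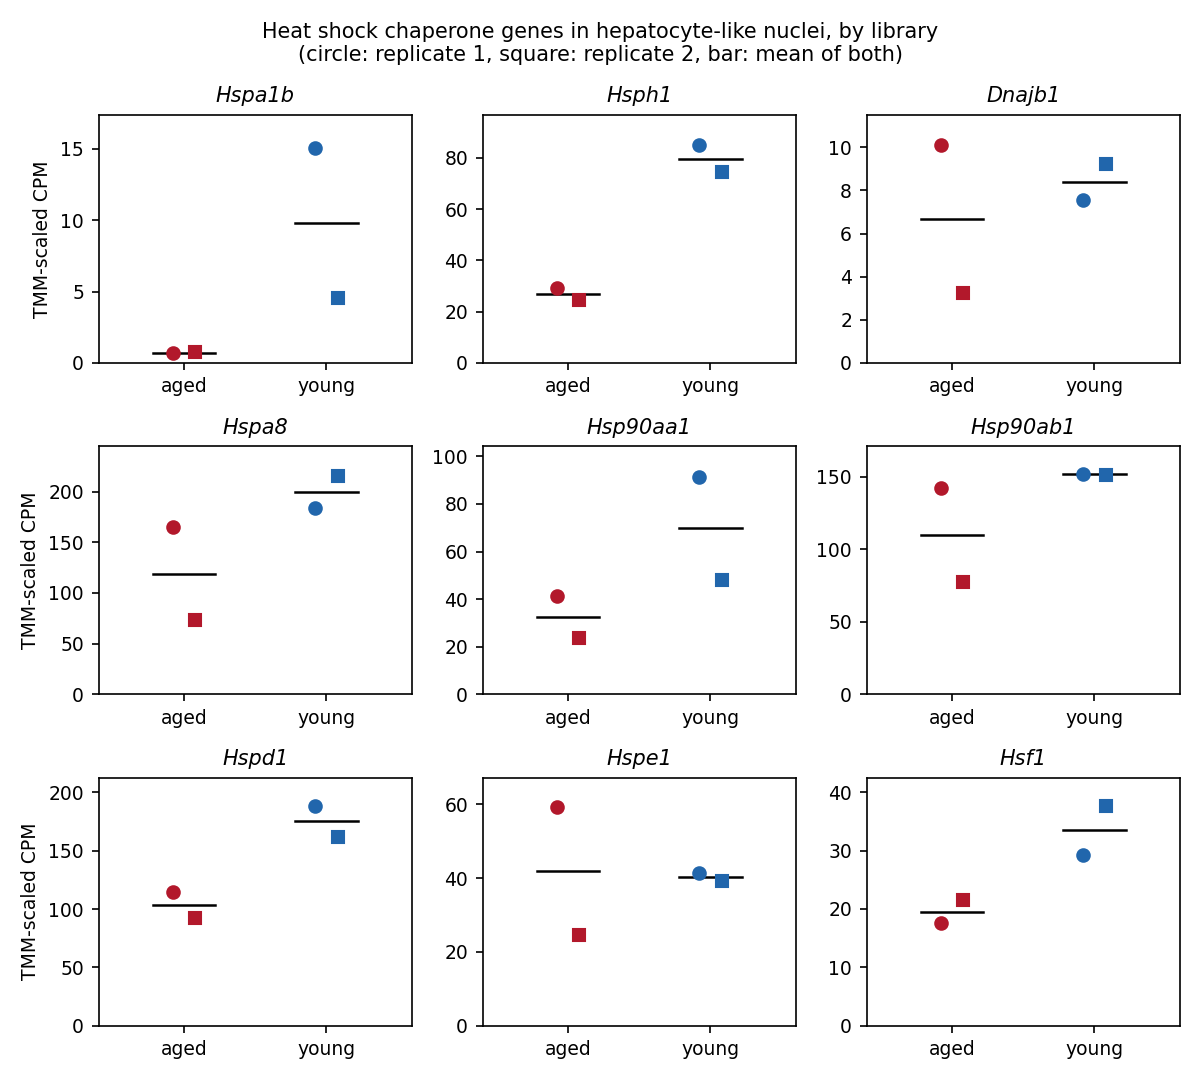
Levels of 9 heat shock genes in hepatocyte-like nuclei, in TMM-scaled CPM on an axis from 0, with aged libraries in red on the left and young libraries in blue on the right. Circles are replicate 1, squares replicate 2 and bars the mean of both; Hspa1b, Hsph1, Hspd1 and Hsf1 have tight aged values below the young ones, whereas Dnajb1, Hspa8, Hsp90ab1 and Hspe1 have aged values that lie far apart.

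Over all 15346 genes tested in hepatocyte-like nuclei, edgeR called 5, or 0.0326%, and 2882 had an unadjusted p under 0.05. Among the 9 tested members the count called was 0, and 5 had an unadjusted p under 0.05. DESeq2 called 827 genes, among them 2 members, Hspa1b (adjusted p = 7.86e-05) and Hsph1 (adjusted p = 0.00348), so whether these 2 pass depends on the tool. Both aged libraries lay below both young libraries for 25.8% of all genes tested and for 7 of the 9 members. The median log2 fold change was -0.76 over the 9 members and -0.02 over all genes tested.

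The 2 aged libraries did not agree on all members. The ratio of aged replicate 1 to aged replicate 2, in CPM of the plain total, was 3.01 for Dnajb1, 2.34 for Hspe1, 2.20 for Hspa8, 1.79 for Hsp90ab1 and 1.70 for Hsp90aa1. It was 1.21 for Hspd1, 1.17 for Hsph1, 0.829 for Hspa1b and 0.798 for Hsf1. The median over 15102 genes with a count in all 4 libraries was 0.972, and it was 1.14 for genes of up to 10 kb and 0.912 for genes over 50 kb. The age difference is therefore carried by both aged libraries for Hspa1b, Hsph1, Hspd1 and Hsf1, and mainly by aged replicate 2 for Hspa8 and Hsp90ab1. The grouping was made after the values were seen, and its cause was not tested.

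Other genes of the protein folding machinery were followed as lists, beside a background of 51.4% of all genes tested with a negative log2 fold change. Both aged libraries lay below both young ones for 25.8% of all genes tested and above them for 25.8%. Of 16 tested genes of the HSF1-inducible cytosolic list, none passed edgeR's threshold in hepatocyte-like nuclei, 14 had a negative log2 fold change and 10 had both aged libraries below both young ones (list median -0.53). The smallest unadjusted p of this list was that of Stip1, which links HSP70 to HSP90 and lay at 34.9 and 33.3 CPM in the aged and 78.2 and 68.6 CPM in the young libraries (log2 fold change -1.11, SE 0.30, edgeR adjusted p = 0.168). Next came Hspa4, an HSP110 relative of Hsph1, at 89.7 and 102 CPM in the aged and 199 and 143 CPM in the young libraries. The third was Dnajb5, a rare J-domain gene counted 7 and 27 times in the aged and 8 and 33 times in the young libraries.

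The TRiC chaperonin is the ring that folds actin and tubulin. Of its 8 subunit genes, 7 had both aged libraries below both young ones, against 25.8% of all genes tested. The median log2 fold change was -0.78. The eighth, Tcp1, had both aged libraries above, at 172 and 95.3 CPM in the aged and 70.9 and 84.8 CPM in the young libraries. Cct2 lay at 17.1 and 18.6 CPM in the aged and 35.6 and 39.1 CPM in the young libraries (log2 fold change -1.07, SE 0.30, edgeR adjusted p = 0.179). Cct6a and Cct8 had log2 fold changes of -1.10 and -0.98. None of the 8 passed the threshold. In the prefoldin list, which feeds that ring, 4 of 6 genes lay below in both aged libraries (median -0.31), and Pfdn2, Pfdn6 and Vbp1 had log2 fold changes of -0.58, -0.68 and -0.47.

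The HSP70 and HSP90 co-chaperones had 14 of 19 negative log2 fold changes and a median of -0.24. Both aged libraries lay below for 8 of 19, against 25.8% of all genes tested. The smallest unadjusted p values in that list were those of Stub1, which encodes a ubiquitin ligase bound to HSP70 (log2 fold change -1.02, SE 0.33), Bag6 (-0.96, SE 0.34) and Unc45a, which encodes a myosin chaperone that works with HSP90 (-0.83, SE 0.35). Mitochondrial chaperones and proteases had 7 of 10 negative values and a median of -0.22, and 4 of the 10 had both aged libraries below and 2, Grpel2 and Hscb, both above. In that list Hspa9, the mitochondrial HSP70, lay at 95.2 and 96.8 CPM in the aged and 189 and 161 CPM in the young libraries (log2 fold change -0.86, SE 0.30, edgeR adjusted p = 0.211). The other two named from it are the protease Lonp1 (log2 fold change -1.21, SE 0.32) and Trap1, the mitochondrial HSP90 (-0.71, SE 0.30).

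The list of HSP70 relatives of other compartments and tissues also holds the HSP90 gene Hsp90b1. It had 4 of 7 negative values, which is near the 51.4% of all genes tested, and a median of -0.72. The share of all genes with both aged libraries below was 25.8%. Of the 7, 4 had both aged libraries below and 1 had them above, namely Hspa12a at 4.22 and 3.38 CPM in the aged and 2.26 and 0.747 CPM in the young libraries. Hspa5, the HSP70 of the endoplasmic reticulum, and its partner Hsp90b1 had log2 fold changes of -0.72 (SE 0.32) and -0.76 (SE 0.34), and the rare Hspa12b was counted 14 and 11 times in the aged and 35 and 11 times in the young libraries. Among 7 heat shock factors and regulators the median was -0.22, and Hsf2, the second heat shock factor, lay at 53.9 and 57.7 CPM in the aged and 96.0 and 107 CPM in the young libraries (log2 fold change -0.86, SE 0.29, edgeR adjusted p = 0.207). Hsf2bp, whose product binds that factor, stood the other way, with 24 and 37 UMIs in the aged and 0 and 3 UMIs in the young libraries, and Ep300, an acetyltransferase gene, had a log2 fold change of -0.39 (SE 0.33). None of the genes in these lists passed in hepatocyte-like nuclei, and the lists are described by counts only.

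Several measures of the nuclei moved with age or library, and their part in these differences was not tested. Summed levels of 4 transcripts retained in the nucleus (Malat1, Neat1, Kcnq1ot1, Meg3) were 50486 and 40764 CPM in the aged and 21233 and 29009 CPM in the young hepatocyte-like nuclei. Summed immediate early genes, which respond quickly to handling, were 501 and 186 CPM in the aged and 341 and 256 CPM in the young, with aged replicate 1 highest. The median share of mitochondrial UMIs was 0.737% and 0.356% in the aged and 0.298% and 0.568% in the young libraries. Genes of up to 10 kb had a median age log2 fold change of -0.14 and single-exon genes one of 0.08.

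Hsph1 and Hspa1b were lower in both aged libraries on either side of the median mitochondrial share of each library. For Hsph1, in nuclei above that median it lay at 25.3 and 20.9 CPM of the plain total in the aged and 79.2 and 81.2 CPM in the young libraries. In nuclei at or below it the levels were 29.5 and 26.1 CPM in the aged and 78.9 and 81.9 CPM in the young libraries. Hspa1b lay at 0.239 and 0.570 CPM in the aged and 12.0 and 5.45 CPM in the young nuclei above the median, and at 0.775 and 0.877 CPM in the aged and 15.5 and 4.72 CPM in the young nuclei at or below it.

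Nuclei with a UMI of a member were counted after thinning each hepatocyte-like nucleus to 1000 UMIs, which left out shallower nuclei (1464 and 1109 in the aged and 68 and 5031 in the young libraries). Hspa1b was found in 0.0253% and 0.0992% of aged nuclei and in 1.29% and 0.615% of young nuclei. The exact binomial 95% intervals, which cover counting error only, were 0.000641% to 0.141% and 0.0399% to 0.204% in the aged and 0.754% to 2.06% and 0.390% to 0.921% in the young libraries. Without thinning the shares were 0.185% and 0.306% in the aged and 5.85% and 0.559% in the young libraries. The groups did not overlap either way.

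For Hsph1 the thinned shares were 2.96% and 2.39% in the aged and 7.44% and 7.59% in the young libraries. Without thinning they were 8.14% and 8.73% in the aged and 27.8% and 8.27% in the young libraries, and the groups overlapped. With 2 libraries against 2 the smallest p of an exact two-sided permutation test is 0.333. The thinned shares of 7 of the 10 members reached it, and the unthinned share of Hsph1 did not (exact p = 0.667). Reaching it means only that the groups did not overlap, and shares of nuclei were not computed for other genes. By CPM, 25.8% of all genes tested had both aged libraries below both young ones and 25.8% had them above. No class of nuclei is known to lack these genes and could give a background share. In no library did a hepatocyte-like nucleus hold more than 3 UMIs of Hspa1b, and in young replicate 1 its 100 UMIs were spread over 81 of 1385 nuclei. Too few nuclei held an Hspa1a or Hspa1b UMI (17 and 27 thinned nuclei in the young libraries) to describe how often other members occur in the same nuclei.

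Outside hepatocytes, Hsph1 and Hspd1 were lower in both aged libraries in each class that could be tested, and passed the threshold in stellate/fibroblast-like nuclei, a class of cells that store vitamin A and lay down matrix. There Hsph1 lay at 26.4 and 14.6 CPM in the aged and 77.9 and 74.6 CPM in the young libraries (11, 20, 142 and 182 UMIs). It fell with age by 2.01 on the log2 scale (SE 0.38, edgeR adjusted p = 0.0138). Hspd1 lay at 52.9 and 54.0 CPM in the aged and 186 and 114 CPM in the young libraries and fell by 1.48 (SE 0.34, edgeR adjusted p = 0.0245). Neither pair of values overlapped between the groups.

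These were the 2 members called of 8 tested in stellate/fibroblast-like nuclei, where 7.98% of the 11857 genes tested were called lower and 17.4% in either direction. Of the 8 members, 3 had both aged libraries below both young ones, against 33.9% of all genes tested. Hspa1b was counted 0 and 0 times in the aged and 11 and 7 times in the young libraries, and did not pass the filter on low counts. Hspa8 was the third member whose groups did not overlap, at 142 and 51.8 CPM in the aged and 157 and 187 CPM in the young libraries.

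Hepatocyte RNA in these droplets moved with age, and its part in the 2 calls was not tested beyond the following values. Of stellate/fibroblast-like nuclei, the share with 12 hepatocyte transcripts at 50% or more of their level in hepatocyte-like nuclei was 7.44% and 18.6% in the aged and 52.1% and 76.0% in the young libraries. Without these nuclei no member was called (Hsph1 log2 fold change -1.28, adjusted p = 0.446; Hspd1 -1.32, adjusted p = 0.263), and 1 gene of all tested was. In the remaining nuclei the Hsph1 groups did not overlap, though on few molecules. Hsph1 lay at 27.1 and 14.4 CPM of the plain total in the aged libraries (9 and 16 UMIs). In the young libraries it lay at 39.5 and 56.5 CPM (7 and 16 UMIs). The calls also ended without aged replicate 2 (adjusted p = 0.0992 for Hsph1 and 0.0981 for Hspd1), and that of Hspd1 without aged replicate 1 (adjusted p = 0.0952). Cluster 3 held most of the class in the aged and cluster 5 in the young libraries.

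In macrophage-like nuclei, the liver's resident phagocytes and their relatives, Hsph1 lay at 41.1 and 25.3 CPM in the aged and 85.0 and 88.3 CPM in the young libraries (log2 fold change -1.36, SE 0.38, edgeR adjusted p = 0.192). Hspd1 lay at 96.9 and 72.2 CPM in the aged and 198 and 187 CPM in the young libraries (log2 fold change -1.17, SE 0.29, edgeR adjusted p = 0.185). None of the 7 tested members was called in this class, where edgeR called 1 of 9569 genes (0.0105%), 1516 genes had an unadjusted p under 0.05 and DESeq2 called 51 genes and no member. Hepatocyte RNA moved with age here too, and its part was not tested. Nuclei at 50% or more of the hepatocyte level were 44.6% and 54.7% of macrophage-like nuclei in the aged and 76.7% and 90.9% in the young libraries. In endothelial-like nuclei, which line the sinusoids and vessels, Hsph1 lay at 37.0 and 27.0 CPM in the aged and 63.8 and 70.6 CPM in the young libraries (log2 fold change -1.12, SE 0.48, edgeR adjusted p = 0.928). Hspd1 there had a log2 fold change of -0.59. Nuclei at 50% or more of the hepatocyte level were 18.9% and 77.8% of endothelial-like nuclei in the aged and 52.9% and 90.2% in the young libraries. No endothelial gene of 9717 was called by edgeR (0%), 402 had an unadjusted p under 0.05, and DESeq2 called 9 genes and none of the 7 tested members. T/NK-like nuclei were not tested for age, since young replicate 1 held 17 of them.

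**Figure D2:**
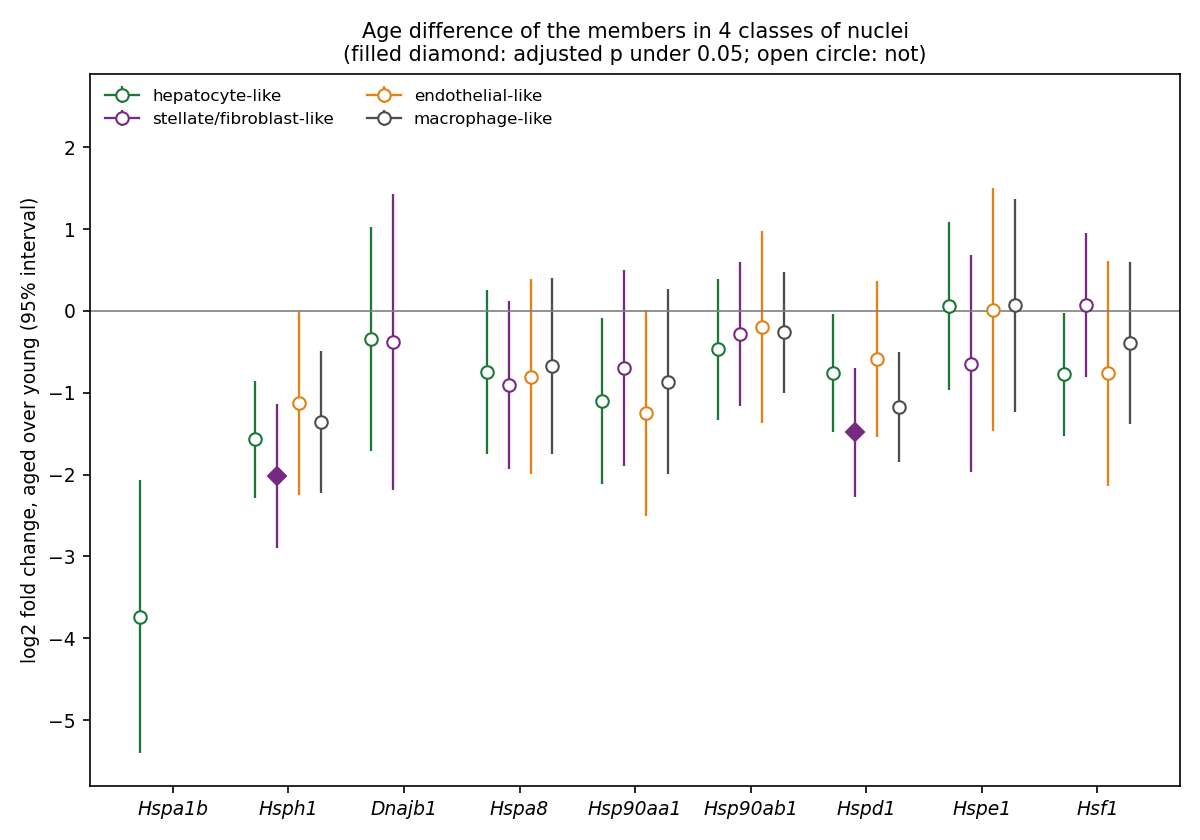
Log2 fold change of each member, aged over young, in hepatocyte-like, stellate/fibroblast-like, endothelial-like and macrophage-like nuclei, with 95% intervals. Filled diamonds have an adjusted p under 0.05; Hsph1 and Hspd1 lie below 0 in all 4 classes and are called in stellate/fibroblast-like nuclei, and Hspe1 lies near 0 in 3 of the 4.

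Levels by class of nuclei were set side by side in CPM of the plain total, as means over the 4 libraries. Hsph1 ran from 60.5 ± 26.8 in cholangiocyte-like nuclei, 58.6 ± 28.9 in T/NK-like and 57.9 ± 30.8 in macrophage-like nuclei to 53.4 ± 31.2 in hepatocyte-like, 48.7 ± 22.0 in endothelial-like, 48.2 ± 29.3 in B-like and 47.8 ± 32.5 in stellate/fibroblast-like nuclei (SD, n = 4). Neighbours in that order lie within their spread, most of which is that between the aged and the young libraries. The classes come from the same libraries, so that spread cannot judge differences between classes, and the order is a description. In cholangiocyte-like nuclei the Hsph1 values rest on 2 to 19 UMIs a library. In each of these 7 classes both aged libraries lay below both young libraries for Hsph1, but the B-like value of young replicate 1 rests on 1 UMI in 8 nuclei. Without nuclei rich in hepatocyte RNA this held in stellate/fibroblast-like and macrophage-like nuclei, on few molecules. The macrophage-like values then rest on 23 and 7 UMIs in the aged and 1 and 3 in the young libraries, with 10 nuclei in young replicate 1. Endothelial-like nuclei then overlapped (39.9 and 23.9 CPM aged, 39.7 and 87.5 CPM young), as did T/NK-like nuclei (60.2 and 67.6 CPM aged, 101 and 0 CPM young). The young values of T/NK-like nuclei rest on 1 and 0 UMIs. Hspd1 in those 8 nuclei also had 1 UMI, or 73.4 CPM, below the 92.5 and 74.5 CPM of the aged B-like nuclei.

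**Figure D3:**
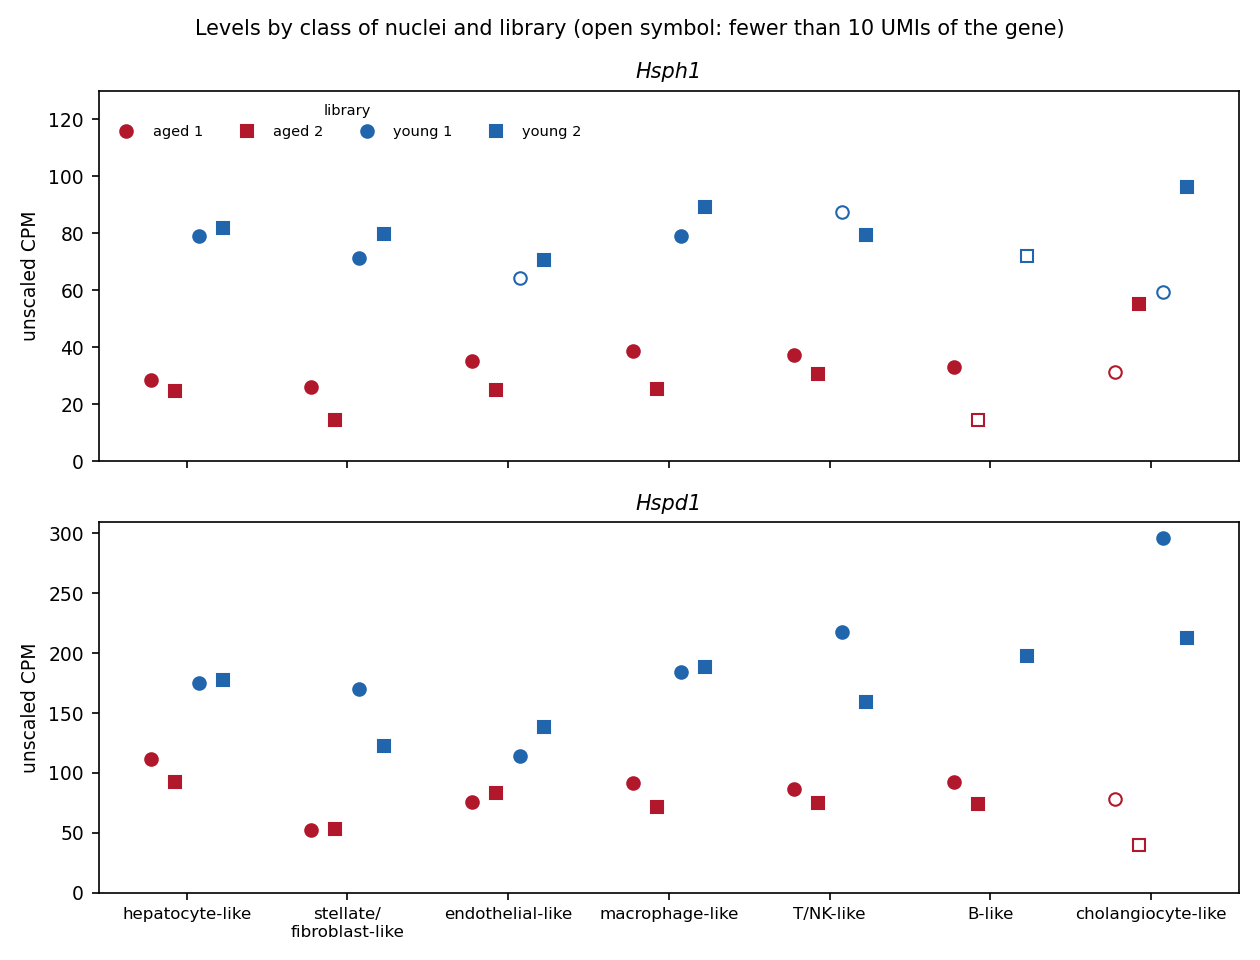
Hsph1 and Hspd1 in 7 classes of nuclei and 4 libraries, in CPM of the plain total on axes from 0, with aged libraries in red left of young libraries in blue. Open symbols rest on fewer than 10 UMIs, and a library with fewer than 10 nuclei of a class is not drawn, which leaves out B-like nuclei of young replicate 1; among the points drawn, the aged values of both genes lie below the young ones.

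Between classes within libraries, the members were called about as often as genes in general. In macrophage-like nuclei Hspe1 was lower by a log2 fold change of -0.53 (SE 0.15, edgeR adjusted p = 0.0169) and Hspd1 by one of -0.37 (SE 0.12, edgeR adjusted p = 0.0296), with the library as a block. These are 2 of 8 members tested, against 18.7% of all genes called lower, and 65.4% of all genes had a negative log2 fold change (median -0.18). Hspe1 lay at 48.3, 18.7, 26.3 and 38.1 CPM of the plain total in macrophage-like nuclei of aged replicates 1 and 2 and young replicates 1 and 2, against 57.7, 24.7, 38.5 and 43.0 CPM in hepatocyte-like nuclei of the same libraries. Hspe1 was thus lower in 4 of 4 libraries. Hspd1 lay at 91.2, 71.9, 184 and 189 CPM in macrophage-like nuclei, in the same order. In hepatocyte-like nuclei it lay at 112, 92.4, 175 and 178 CPM. By plain CPM Hspd1 was thus lower in both aged libraries and slightly higher in both young ones. Both calls ended without aged replicate 1 (adjusted p = 0.246 for Hspe1 and 0.347 for Hspd1) and without aged replicate 2 (adjusted p = 0.0543 and 0.119), and with DESeq2.

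In T/NK-like nuclei Hspd1 was lower than in hepatocyte-like nuclei (log2 fold change -0.45, SE 0.17, edgeR adjusted p = 0.0358), the 1 member called of 8, against 11.1% of all genes called lower, with 63.9% of all genes negative (median -0.16). That call ended without either aged library (adjusted p = 0.603 without replicate 1 and 0.329 without replicate 2), and with RLE scaling (adjusted p = 0.0572). Young replicate 1 went the other way, with Hspd1 at 218 CPM of the plain total in T/NK-like nuclei (10 UMIs in 17 nuclei) and 175 CPM in hepatocyte-like nuclei. The T/NK-like fit had 38382 total degrees of freedom, so its spread was in effect taken from all genes together. In stellate/fibroblast-like nuclei none of 9 members was called, against 10.4% of genes, and in endothelial-like nuclei none of 8, against 8.15%. Hspd1 and Hspe1 had log2 fold changes of -0.66 and -0.62 in stellate/fibroblast-like and -0.56 and -0.65 in endothelial-like nuclei, with adjusted p between 0.0791 and 0.129 by edgeR.

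Droplets of all 4 classes also held hepatocyte RNA, with a median of 20.4% to 88.0% of the hepatocyte level by class and library. Without the nuclei rich in it, Hspd1 in stellate/fibroblast-like nuclei had a log2 fold change of -1.09 (edgeR adjusted p = 0.00147), a larger gap than in all nuclei of the class. In that setting 3 members were called there and Hspe1 was called in endothelial-like nuclei (-1.19, adjusted p = 0.0448). In macrophage-like nuclei Hspd1 then had a log2 fold change of -1.23 (edgeR adjusted p = 0.00737), and Hspe1 an adjusted p of 0.308. These endothelial-like and macrophage-like values rest on few molecules. Endothelial-like nuclei then held 8 and 2 UMIs of Hspe1 in the aged and 1 and 2 in the young libraries. Macrophage-like nuclei held 33 and 7 UMIs of Hspd1 in the aged and 1 and 4 in the young libraries, with 10 nuclei in young replicate 1.

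Within the liver lobule, Hspa1b was higher and Hspa8 lower in pericentral than in periportal hepatocyte-like nuclei. Pericentral hepatocytes lie by the outflowing central vein and are known for drug metabolism and glutamine synthesis, and periportal ones lie by the inflowing portal vessels and are known for urea synthesis. Nuclei were ordered within each library by a score of landmark genes that includes no member, and the highest and lowest scoring nuclei, in equal numbers with as many between them, were summed as the 2 parts. The score runs continuously, and between 8.81% and 12.1% of nuclei lay within 0.05 of a bound.

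Hspa1b was counted 4 and 16 times in aged and 44 and 24 times in young pericentral nuclei, against 5 and 4 times in aged and 14 and 14 times in young periportal nuclei. In CPM of the plain total this was 0.608, 1.34, 19.0 and 6.91 in pericentral nuclei of aged replicates 1 and 2 and young replicates 1 and 2, and 0.836, 0.350, 7.26 and 4.34 in their periportal nuclei. The pericentral value was the higher one in 3 of 4 libraries, the exception being aged replicate 1 with 9 UMIs in both parts. The log2 fold change was 1.04 (SE 0.32, edgeR adjusted p = 0.0422). This call rests on few molecules and ended with DESeq2 (adjusted p = 0.127), with nuclei of at least 1000 UMIs (0.122) and without aged replicate 2 (0.134), and without either young library the gene was too rare to test.

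Hspa8 lay at 131, 67.7, 143 and 208 CPM of the plain total in pericentral nuclei, against 199, 80.3, 209 and 248 CPM in periportal nuclei of the same libraries, in the same order. Every library had the lower value in its pericentral nuclei. Hspa8 was lower by a log2 fold change of -0.41 (SE 0.08, edgeR adjusted p = 0.00638), and the nuclei between the 2 parts lay between them in 3 of 4 libraries, at 153, 70.7 and 168 CPM, and at 257 CPM in young replicate 2. The call held in each alternative run, with log2 fold changes between -0.46 and -0.32.

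Of 12596 genes tested, 11.2% were called higher and 11.2% lower in pericentral nuclei, so 1 and 1 of 9 members is near that background. The other 7 members were not called. Hspd1 had a small negative value in all 4 libraries (log2 fold change -0.12, 95% interval -0.29 to 0.04), and Hsph1 lay between -0.19 and 0.23 at 95%. Of the 7, Dnajb1 had the widest interval, from -0.46 to 0.50.

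**Figure D4:**
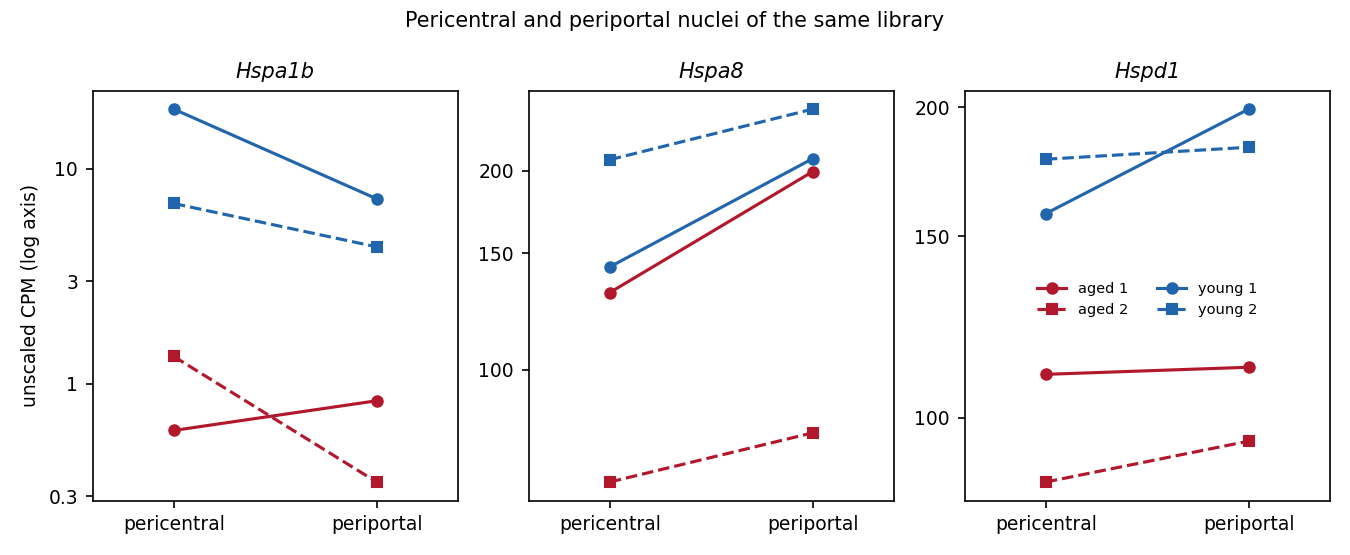
Hspa1b, Hspa8 and Hspd1 in pericentral and periportal hepatocyte-like nuclei, in CPM of the plain total on log axes, with 1 line for each library (aged in red, young in blue; solid for replicate 1, dashed for replicate 2). Hspa8 is lower in pericentral nuclei in all 4 libraries, and Hspa1b is higher there in 3 of 4.

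The folding lists held further calls between the 2 parts, beside 11.2% of all genes tested called higher and 11.2% lower in pericentral nuclei. Of 14 tested HSF1-inducible genes, 3 were called higher in pericentral nuclei and none lower, namely the J-domain genes Dnaja4 (log2 fold change 0.93, SE 0.28) and Dnaja1 (0.35, SE 0.10) and the small heat shock gene Hspb8 (0.38, SE 0.09). The list's median was 0.00, and these genes and those of the other lists called here were named after their values were seen. Hsf2 was also called higher, by 0.56 (SE 0.07, edgeR adjusted p = 0.000527). Of 6 tested genes in the list of HSP70 relatives, which also holds an HSP90 gene, 4 were called lower and none higher. Those 4 are chaperones of the endoplasmic reticulum. These were Hyou1 (-0.71), Hspa5 (-0.69), Hspa13 (-0.84) and the HSP90 of that compartment, Hsp90b1 (-0.45), with edgeR adjusted p between 0.000436 and 0.00529. Hspa9, the mitochondrial HSP70, was called lower by -0.33 (SE 0.07). In its list 1 of 10 was called higher and 1 lower, near the shares of all genes. No TRiC or prefoldin gene was called.

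The age difference itself did not pass a test of differing between the 2 parts for any of 9 members, and edgeR called 12 of 13815 genes (0.0869%) while 834 had an unadjusted p under 0.05. DESeq2 called 17 genes and no member. Hsph1 had the smallest unadjusted p of the members. Its interaction of 0.35 on the log2 scale (SE 0.15, edgeR adjusted p = 0.823) is in the direction of a smaller age gap in pericentral nuclei. Hsph1 lay at 31.2 and 25.6 CPM of the plain total in aged and 71.6 and 76.3 CPM in young pericentral nuclei. It lay at 26.7 and 22.9 CPM in aged and 78.9 and 85.9 CPM in young periportal nuclei.

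The genes whose levels ran most like the summed CPM of the inducible members Hspa1a, Hspa1b, Hsph1 and Dnajb1 were named by Spearman's rho over 16 sums, the 4 libraries in 4 classes, among 9110 genes. These sums share their libraries, and with them depth and free RNA, so rho is a description. The 5 highest were Mbd1 (0.93), which encodes a methyl-CpG binding protein, Ddx5 (0.92), an RNA helicase gene, Usp19 (0.91), a deubiquitinase gene, BC005537 (0.91) and Pcf11 (0.91), whose product acts in ending transcription. In hepatocyte-like nuclei the inducible sum was 39.0 and 28.5 CPM of the plain total in the aged and 100 and 97.3 CPM in the young libraries. Most of it was Hsph1 alone, at 28.4 and 24.4 CPM in the aged and 79.0 and 81.6 CPM in the young libraries. Mbd1 lay at 183 and 140 CPM in the aged and 401 and 438 CPM in the young libraries.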

How the data were processed

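The authors deposited matrices of UMI counts per gene and barcode for each of 4 liver libraries, made with Cell Ranger 7.1.0 per the submitters' processing notes. The handling of introns and strand is not given in the sources used here. Per the labels' protocols 10000 nuclei were loaded per sample, and the matrices held 11362 and 14267 barcodes in the aged and 2666 and 14718 in the young libraries, with 38457709, 54777101, 11799751 and 17809372 UMIs in that order and at least 500 UMIs each.

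Barcodes were kept with at least 300 genes and at most 5% mitochondrial UMIs. Scrublet's automatic threshold marked 7 barcodes and was not used, and instead 0.8% of barcodes per 1000 in the matrix, those with the top scores, were taken out (3935 nuclei). Nuclei were clustered (scanpy 1.11.5, 2000 variable genes, 30 components, 20 neighbours, Leiden resolution 1), without the members and lists. Clusters were called "-like" from at least 3 markers, and these names were made here, so they can depart from the study's own. Hepatocyte-like clusters were those where the markers of no other class stood out and at least 3 hepatocyte markers reached 50 CPM. A pair of clusters (603 nuclei) stayed unnamed, since no marker of the best matching class was among their 10 leading genes. They held 372 and 218 nuclei in the aged and 6 and 7 in the young libraries.

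Counts were summed per library and class and tested with edgeR 4.0.16 (TMM, filterByExpr, quasi-likelihood F test, Benjamini-Hochberg over all genes, threshold 0.05), with age as the only term, or with the library as a block for zones and classes. An age test needed 20 nuclei of a class in every library. A self-test on simulated counts preceded the fits. DESeq2 1.42.0, other scaling, filters and left-out libraries were alternatives. Replicate numbers do not pair libraries by the labels. Libraries of one group were not copies (chi-square per degree of freedom 113 in the aged and 62.3 in the young). All 10 members are described, and the 3 genes of smallest unadjusted p in hepatocyte-like nuclei were named from each chaperone list. The members and lists were chosen with earlier results of these data known.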

Additional observations from a re-analysis of the deposited data

How the results depend on the processing

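The number of genes called for age moved strongly with the method, while the direction of most members did not.

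In hepatocyte-like nuclei the 5 genes called became 1576 without a filter on low counts, 827 with DESeq2, 2 with at most 1% mitochondrial UMIs and 224 to 1861 when 1 library was left out, and the 0 members called became 2, 2, 0 and 1 to 3. Hspa1b and Hsph1 kept a negative value in 12 of 12 alternatives (log2 fold changes -4.33 to -2.64 and -1.69 to -1.40, adjusted p 1.81e-07 to 0.284 and 0.00348 to 0.30). Hspd1 (-0.91 to -0.57) and Hsf1 (-0.93 to -0.55) did so too, without a call. Hspa8 ran from -1.43 to -0.23 and Hsp90ab1 from -0.95 to -0.054, each nearest 0 without aged replicate 2 (adjusted p = 0.935 and 0.988) and farthest without aged replicate 1. Hsp90aa1 was called without young replicate 2 (-1.46, adjusted p = 0.0203) but lay at -0.56 without young replicate 1 (adjusted p = 0.554) and at -0.71 without aged replicate 2 (adjusted p = 0.604). With 1 library left out, Dnajb1 ran from -1.35 to 0.31 and Hspe1 from -0.69 to 0.60, turning to 0.31 without aged replicate 2 and to -0.69 without aged replicate 1. The share of nuclei with Hspe1 turned from higher to lower in the aged (-0.176 percentage points) when thinned to 500 UMIs.

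Same-numbered libraries did not deviate together (correlation -0.206), and the labels do not pair them. With the replicate block 3 genes and 0 members were called in hepatocyte-like nuclei, and Hspe1 lay at -0.074. With the block 1230 genes and 1 member were called in stellate/fibroblast-like nuclei (Hspd1 adjusted p = 0.0541), none in endothelial-like and 4 genes in macrophage-like nuclei. With the crossed pairing, chosen after the data were seen, 242 genes and 0 members were called in hepatocyte-like nuclei, where Hspe1 lay at -0.070.

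In stellate/fibroblast-like nuclei the calls were 3191 genes and 4 members without a filter, 1 and 0 without nuclei rich in hepatocyte RNA, and 1366 to 3818 and 0 to 3 when 1 library was left out. Endothelial-like nuclei gave 72 genes without a filter, 9 with DESeq2 and 0 to 372 with a library left out. Macrophage-like nuclei gave 654, 51 and 5 to 462. No member was called in either.

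For zones, 1865 to 2575 genes and 1 to 2 members were called with a library left out, and 1 member with DESeq2 and with at least 1000 UMIs. The zone by age term gave 195 genes without a filter, 1 with at least 1000 UMIs and 0 to 200 with a library left out.

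Against hepatocyte-like nuclei, no filter, DESeq2 and removal of nuclei rich in hepatocyte RNA gave 2693, 3188 and 6141 genes in stellate/fibroblast-like nuclei, with 0, 1 and 3 members. In endothelial-like nuclei no filter and that removal gave 2836 and 3742 genes, with 1 and 2 members. In macrophage-like nuclei no filter, DESeq2 and that removal gave 5, 0 and 1 members. In T/NK-like nuclei no filter gave 4053 genes and DESeq2 1463, with 0 members by DESeq2 and by RLE scaling. With a library left out the counts were 50 to 1799 genes in stellate/fibroblast-like, 859 to 1720 genes and 0 to 3 members in endothelial-like, 2086 to 4716 genes and 0 to 2 members in macrophage-like, and 888 to 3060 genes and 0 to 1 members in T/NK-like nuclei. The causes of these shifts were not tested. A left-out library leaves 1 sample in a group, which is then assumed to vary like the rest.

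Age in macrophage-like nuclei and the T/NK-like class could not be fitted without nuclei rich in hepatocyte RNA, since the smallest libraries then held 10 and 9 nuclei.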

Other observations

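Further ratios within a library, which no scaling between libraries can change, are given as values without explanation. Hepatocyte-like nuclei held 0.177 and 0.334 UMIs of Hsph1 per UMI of Hspa8 in the aged libraries and 0.462 and 0.345 in the young libraries. The 2 groups did not overlap, but aged replicate 2 and young replicate 2 were nearly equal. For the 2 cytosolic HSP90 genes there were 0.292 and 0.306 UMIs of Hsp90aa1 per UMI of Hsp90ab1 in the aged and 0.602 and 0.317 in the young hepatocyte-like nuclei, so young replicate 1 stood apart from the other 3 libraries. The same library had the highest ratio of these 2 genes in stellate/fibroblast-like nuclei (0.525), endothelial-like nuclei (0.80, from 12 and 15 UMIs) and macrophage-like nuclei (0.875, from 21 and 24 UMIs). It also had the highest Hspa1b level in hepatocyte-like nuclei.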
